A study of Mus musculus with 10 samples.

Results

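A pair of mouse breast cancer cell lines, each driven toward fat cells, were set against each other at day 7, to describe how far the fat cell program had come in each and which genes set them apart. The 4 libraries were chosen by their treatment labels out of the 10 libraries of the series, 2 of MTΔECad cells with rosiglitazone and 2 of Py2T-LT cells with BMP2 and a MEK inhibitor. MTΔECad cells are labelled as mesenchymal breast cancer cells, and the name marks the loss of E-cadherin. Rosiglitazone is an agonist of the nuclear receptor PPARγ. Py2T-LT cells are long-term cultured Py2T cells, from a mouse mammary tumour line, and they received bone morphogenetic protein 2 (BMP2) together with an inhibitor of the kinase MEK, PD98059 in the protocol. MTΔECad controls and Py2T-LT controls, kept in DMSO medium per the protocol, have 2 libraries each and serve here to show which differences were there before treatment. The titles of the Py2T-LT controls name day 7. Those of the MTΔECad controls name no day, and they were taken as day 7 here. The usual doses of the protocol are 2 µM rosiglitazone, 200 ng/ml BMP2 and 40 µM of the MEK inhibitor, and the sample labels give no dose. That protocol adds rosiglitazone to cancer cells after BMP2, and the labels of the Py2T-LT libraries do not name it: its presence in that medium was not settled.

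Each end state is 1 cell line under 1 treatment. Line and treatment therefore changed together and cannot be told apart, and these are bulk libraries, in which fewer fat-like cells and less fat cell RNA per cell cannot be told apart either. Levels are CPM, counts scaled by library size, given for replicates 1 and 2 of a group in that order or as the mean ± SD (n = 2). A gene is called higher or lower, or said to have risen or fallen, where its Benjamini-Hochberg adjusted p from edgeR's quasi-likelihood test was under 0.05 over the 13149 genes tested. Log2 fold changes carry their standard error. An end state difference is rosiglitazone-treated MTΔECad over treated Py2T-LT, a control difference is MTΔECad control over Py2T-LT control, and the change of the gap is the first less the second, tested in the same model.

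Fat cell differentiation is driven by PPARγ and C/EBPα, which switch on each other and the genes of the mature cell. Mature fat cells keep triglyceride in a droplet coated by perilipins, take up and make fatty acids to fill it, release them again through a chain of lipases, and secrete hormones such as adiponectin, adipsin and leptin. Mesenchymal cells can enter this path when PPARγ is activated by a ligand, BMP signals commit mesenchymal precursors to fat or bone, and ERK, the kinase below MEK, can phosphorylate PPARγ and lower its activity.

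Library totals ran from 14776524 to 16726330 counts in the 4 end state libraries and from 14659987 to 17249199 over all 10. Replicates correlated at 0.99626 or more within each end state (Pearson, log2 CPM, across genes). The Py2T-LT controls were the least alike pair of the series, at 0.99525. They enter every control difference, change of the gap and Py2T-LT response. Cdh1, the gene of E-cadherin (NCBI Gene 12550, chromosome 8, 106603350 to 106670247, GRCm38), stood at 3.02 and 4.61 CPM in rosiglitazone-treated MTΔECad libraries and at 18.3 and 15 CPM in treated Py2T-LT libraries, with 2.41 ± 0.227 and 33.8 ± 3.04 CPM on average in MTΔECad and Py2T-LT controls. The MTΔECad libraries were thus low, but not at 0, and the deleted part of the gene is not given in the labels. The markers of other cell types were low: over the 5 measured haematopoietic markers the summed level was 9.421 to 11.35 CPM in the MTΔECad and 7.907 to 9.308 CPM in the Py2T-LT end state. The 6 endothelial markers summed to 0.4814 to 0.9181 and 0.2678 to 0.7559 CPM, the 2 skeletal muscle markers to 0.4591 to 0.4814 and 0.8705 to 1.395 CPM, and the 5 secretory mammary markers to 0 and to 0.05814 CPM at most. A list of 4 nuclear and other non-coding RNAs summed to 41230 to 42190 CPM in the MTΔECad and to 34280 to 38370 CPM in the Py2T-LT end state. These sums do not settle how the RNA was selected. The part of these RNAs in the differences was not tested.

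The end states differed over most of the transcriptome. Of the 13149 genes, 63.4% were called, 4043 higher (30.7%) and 4294 lower (32.7%) in rosiglitazone-treated MTΔECad cells, with a median of -0.03 on the log2 scale. Counts of a gene list are read against these shares. The difference was mostly an older one: 5823 of the 8337 calls (69.8%) had a called control difference of the same direction, 404 (4.85%) one of the opposite direction, and 2110 (25.3%) none. Among these 2110, the test of the change itself called a wider gap in 833, and these are spoken of below as differences that arose with treatment.

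Most genes of the adipocyte lists were detected in both end states, and most of those tested were higher in the rosiglitazone-treated MTΔECad cells. Over 141 genes in 10 lists, from transcription factors to fatty acid oxidation, 115 reached 1 CPM in both libraries of that end state and 110 did so in Py2T-LT cells after BMP2 and the MEK inhibitor, against 99 in MTΔECad controls and 94 in Py2T-LT controls. Both end states expressed 107 of them at this level, and 21 were below it in both, some of which are named below with the levels per exon length. Of all 18103 genes measured, 11630 and 11656 reached 1 CPM in the single MTΔECad end state libraries, and 11949 and 11905 in those of Py2T-LT. The MTΔECad controls had 11518 and 11554 such genes, and the Py2T-LT controls 11807 and 11793. Of the 121 members that passed the filter on low counts, 80 were higher and 18 lower in the MTΔECad end state (81.0% called), with a median log2 fold change of 1.06. The control difference of the same genes had a median of 0.45, with 64 higher and 22 lower, where 29.3% of all genes were higher and 31.7% lower between controls. The change of the gap was called in 46 toward MTΔECad and in 16 toward Py2T-LT, against 13.3% and 11.6% of all genes. With rosiglitazone 80 of them rose and 3 fell in MTΔECad cells, where 7.95% of all genes rose and 5.26% fell, from 1737 calls that came to 1112 without replicate 1 of the MTΔECad controls, with 691 falls that came to 353 to 463 without 1 of the 4 libraries. With BMP2 and the MEK inhibitor 73 rose and 15 fell in Py2T-LT cells, where 19.1% of all genes rose and 19.4% fell. In both lines 58 passed the test upwards, 22 did so in MTΔECad cells and 15 in Py2T-LT cells without a call for a rise in the other line, and 26 in neither.

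**Figure D1:**
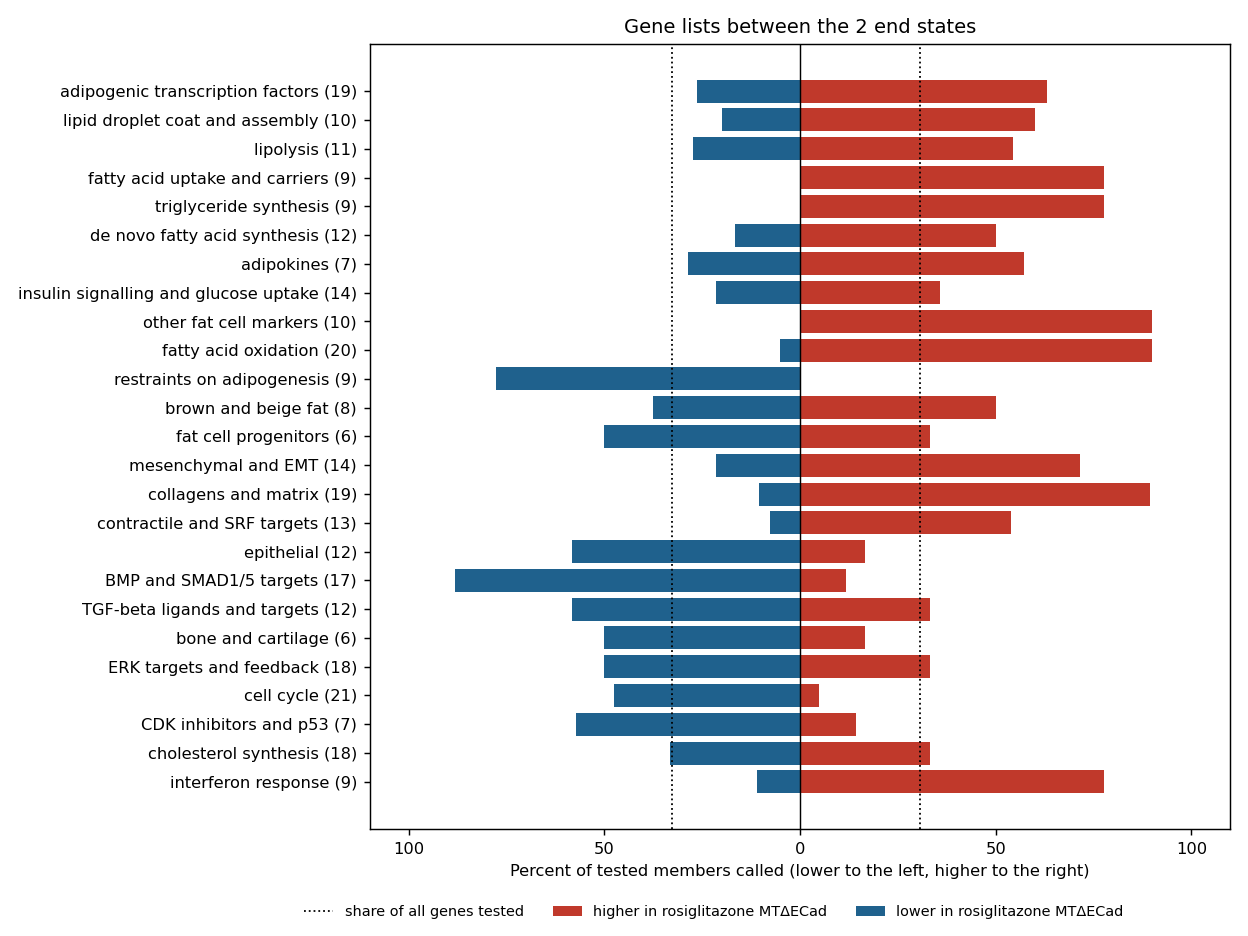
Share of the tested members of each gene list (number of tested members in brackets) that were called higher (right) or lower (left) in rosiglitazone-treated MTΔECad than in BMP2 and MEK inhibitor-treated Py2T-LT cells; dotted lines mark the shares of all genes tested, 30.7% higher and 32.7% lower. Fatty acid oxidation (18 of 20 higher) and the collagens and matrix list (17 of 19 higher) reach far right, and the BMP targets (15 of 17 lower) far left.

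The master regulators were present in both end states. Pparg (NCBI Gene 19016, chromosome 6, 115360879 to 115490404) stood at 63.2 and 61.8 CPM in rosiglitazone-treated MTΔECad cells and at 25 and 25.1 CPM in treated Py2T-LT cells, a log2 difference of 1.32 ± 0.10 (edgeR adjusted p = 2.7e-10). The groups did not overlap. In controls the gap was wider: 68.8 and 67.3 CPM in MTΔECad against 3.14 and 3.94 CPM in Py2T-LT, or 4.26 ± 0.13. Pparg gave -0.12 ± 0.09 with rosiglitazone in MTΔECad (edgeR adjusted p = 0.5) and rose by 2.82 ± 0.14 with BMP2 and the MEK inhibitor in Py2T-LT, and the gap narrowed by 2.94 on the log2 scale (SE 0.17). Cebpa, its partner (NCBI Gene 12606, chromosome 7, 35119293 to 35121928), stood at 107 and 99.3 CPM and 72.4 and 98.6 CPM in the MTΔECad and Py2T-LT end states. The difference of 0.27 ± 0.12 missed the threshold (edgeR adjusted p = 0.074), and the gene rose in both lines, by 0.92 ± 0.13 in MTΔECad and 1.23 ± 0.13 in Py2T-LT. Cebpb, which acts early in differentiation, gave 216 and 217 CPM and 146 and 196 CPM, also without a call at 0.34 ± 0.14 (edgeR adjusted p = 0.056). Without replicate 2 of treated Py2T-LT cells both differences were called, at 0.51 for Cebpa and 0.57 for Cebpb (edgeR adjusted p = 0.0011 and 0.00077), and each was also called at nearly the same value under other settings, Cebpa with no count filter or the compared libraries alone, and Cebpb with these 2, RLE size factors, DESeq2 or the replicate block.

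Among the 19 tested adipogenic transcription factors, 12 were higher and 5 lower in the MTΔECad end state. The largest gap toward MTΔECad was that of Zfp423, a zinc finger factor of fat cell commitment, at 19.6 and 18 CPM against 0.469 and 1.51 CPM in Py2T-LT, or 4.19 ± 0.29, with a control difference of 4.42 ± 0.37. It was 5.30 without replicate 2 of treated Py2T-LT cells, and the control difference 3.80 and 5.51 without replicate 1 or 2 of the Py2T-LT controls. Klf15, a Krüppel-like factor of late differentiation, stood at 6.75 and 5.71 CPM against 0.335 and 0.581 CPM. Its gap of 3.72 ± 0.32 was 1.14 ± 0.24 in controls and widened, with a response of -2.32 ± 0.37 in Py2T-LT cells. Stat5a, which promotes adipogenesis, was 2.16 ± 0.08 higher, and Nfia, a factor of brown fat, 2.50 ± 0.16. Nr1h3, the liver X receptor α gene, rose in both lines and ended at 21.2 and 18.1 CPM in MTΔECad and 3.88 and 5.23 CPM in Py2T-LT cells. A difference in Egr2, an early activator of the program, arose with treatment: 11.5 and 15.7 CPM against 2.41 and 3.14 CPM at the end, and a control difference of 0.29 ± 0.20 that was not called (edgeR adjusted p = 0.23), though it was called at 0.57 without replicate 1 of the MTΔECad controls (edgeR adjusted p = 0.02).

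The lower side held Rxra, the gene of the partner with which PPARγ binds DNA. It rose in both lines and further in Py2T-LT, ending at 127 and 116 CPM in MTΔECad and 179.8 and 193 CPM in Py2T-LT cells, a difference of -0.62 ± 0.08 where controls had -0.03 ± 0.08. Ebf2, a selector of brown fat precursors, had 0 counts in all MTΔECad libraries and 0.937 and 1.34 CPM in treated Py2T-LT libraries, and was at least 5.64-fold lower in MTΔECad at the floor of 3 counts per library. Genes known to restrain adipogenesis were lower in the MTΔECad end state: of 9 tested, none was higher and 7 were lower, with a median of -0.95. Of the 7, 5 had already been lower in MTΔECad controls and 2 had been higher, and the median control difference was -0.76. Gata2 and Gata3, which repress Pparg, stood at 0.656 and 0.481 CPM and 121 and 123 CPM in MTΔECad against 4.08 and 4.65 CPM and 191 and 199.7 CPM in Py2T-LT cells. Gata3 had been higher in MTΔECad than in Py2T-LT controls (0.25, edgeR adjusted p = 0.02). That call was lost without replicate 1 of either control (0.21 without that of MTΔECad and 0.10 without that of Py2T-LT). Wwtr1, which encodes the coactivator TAZ, differed by -0.95 ± 0.07. Runx2, the master factor of bone, differed by -0.97 ± 0.14 after a control difference in the other direction (0.66 ± 0.15, and 0.38 without replicate 1 of the Py2T-LT controls), with responses of -0.24 ± 0.14 to rosiglitazone in MTΔECad (edgeR adjusted p = 0.36) and 1.39 ± 0.14 to BMP2 and the MEK inhibitor in Py2T-LT.

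**Figure D2:**
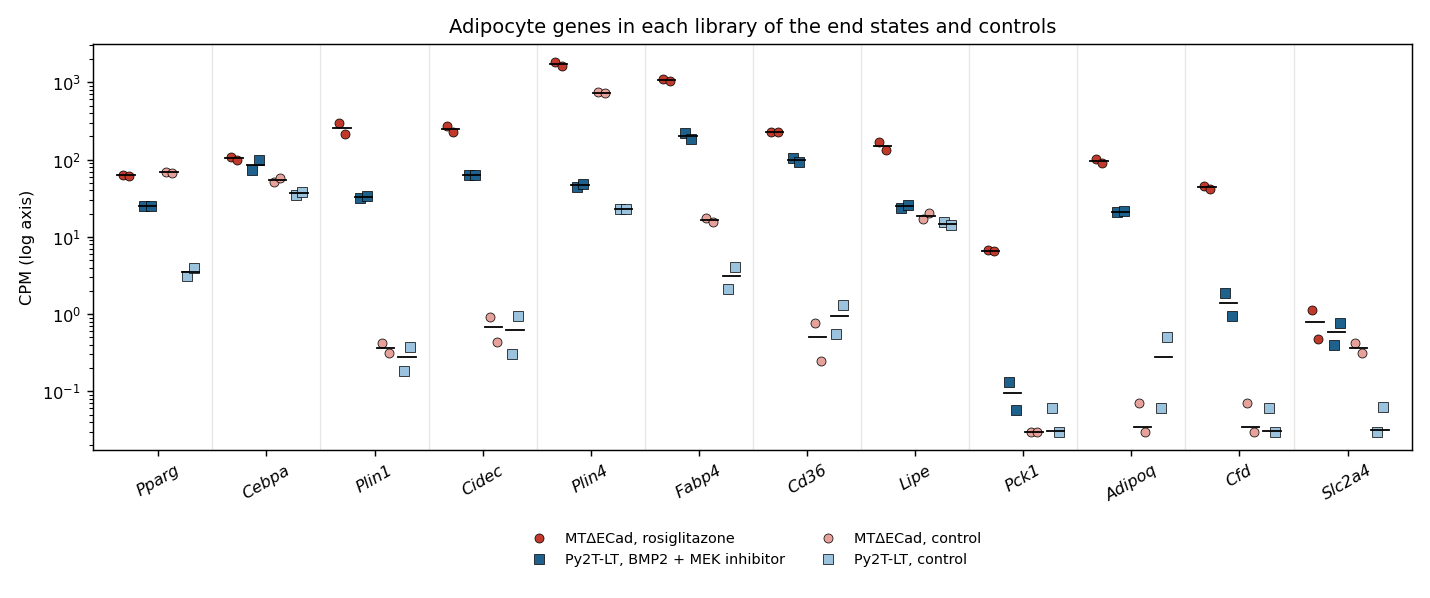
CPM (log axis) of 12 adipocyte genes in each library (points) with the mean of the 2 libraries (black line), for the end states (dark) and the controls (pale) of MTΔECad (circles) and Py2T-LT (squares); values below 0.03 CPM are drawn at 0.03. Plin1, Cidec, Cd36 and Adipoq start near the floor in both controls and end higher in MTΔECad, Cebpa was not called between end states, and Slc2a4 is at 1.11 CPM or less.

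Genes of the lipid droplet coat rose in 8 of 10 tested cases in each line and none fell. Plin1, perilipin 1, the coat protein that gates lipolysis in fat cells (NCBI Gene 103968, chromosome 7, 79721164 to 79732904), stood at 293 and 217 CPM in rosiglitazone-treated MTΔECad cells and at 31.9 and 33.7 CPM in treated Py2T-LT cells, a difference of 2.96 ± 0.14 (edgeR adjusted p = 1e-10). In controls it had 11 counts over both MTΔECad libraries and 9 over both Py2T-LT libraries. Cidec, which fuses droplets into large ones (NCBI Gene 14311, chromosome 6, 113424634 to 113435760), gave 275 and 228 CPM in MTΔECad against 62.1 and 63 CPM in Py2T-LT, or 2.01 ± 0.14. Neither had a called control difference, and the change of the gap missed the threshold in each (edgeR adjusted p = 0.0504 for Plin1 and 0.059 for Cidec). DESeq2 called it in both (2.58 and 1.92), and so did edgeR with no count filter, the compared libraries alone or the replicate block. It was also called for Plin1 without either rosiglitazone library (2.36 and 2.79). For Cidec it was called without replicate 2 of the rosiglitazone libraries or replicate 1 of either control (2.05 to 2.51). Plin4 was different: 1806 and 1635 CPM against 44.5 and 47.9 CPM, or 5.22 ± 0.10, with nearly the same gap in controls (736 ± 26.3 and 23.1 ± 0.0545 CPM, 4.99 ± 0.10). Plin2, the coat of droplets in most cells, ended 1.48 ± 0.09 higher, and Fitm2, which helps droplets bud from the endoplasmic reticulum, 1.17 ± 0.11 higher. Plin5, the perilipin of oxidative tissues, did not separate the lines (2.3 and 1.65 CPM in MTΔECad and 1.87 and 1.98 CPM in Py2T-LT, 0.04 ± 0.31, edgeR adjusted p = 0.93). Of 10 tested members 6 were higher and 2 lower. In none was the change of the gap called (24.8% of all genes were), though it was for Plin1 and Cidec under the settings above.

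Of 11 genes of lipolysis, which breaks stored triglyceride down, 6 were higher and 3 lower, and in 6 the change of the gap was called toward MTΔECad. Pnpla2, the lipase of the first step (ATGL; NCBI Gene 66853, chromosome 7, 141455188 to 141460743), gave 384 and 299 CPM in MTΔECad and 105 and 111 CPM in Py2T-LT, or 1.67 ± 0.12, where the control difference was -0.13 ± 0.13 (edgeR adjusted p = 0.39). Lipe, hormone-sensitive lipase (NCBI Gene 16890, chromosome 7, 25379527 to 25398486), stood at 168 and 135 CPM against 23.8 and 25.9 CPM, or 2.60 ± 0.12, after a control difference of 0.33 ± 0.14 (edgeR adjusted p = 0.052, and 0.034 at 0.44 without replicate 1 of the MTΔECad controls). It rose by 3.02 ± 0.13 with rosiglitazone in MTΔECad and by 0.74 ± 0.14 with BMP2 and the MEK inhibitor in Py2T-LT, and the change of the gap was called (2.28 ± 0.19, edgeR adjusted p = 1.6e-08). Abhd5, the activator of ATGL, ended 1.28 ± 0.09 higher, with responses of 0.79 ± 0.09 in MTΔECad and 0.04 ± 0.09 in Py2T-LT. Mgll, which cleaves the last fatty acid, was 2.87 ± 0.09 higher, less than in controls (5.20 ± 0.14).

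The 3 lower members, G0s2, Adora1 and Pde3b, are brakes of lipolysis. G0s2, the inhibitor of ATGL, was induced in both lines and ended at 7.61 and 6.6 CPM in MTΔECad and 14.5 and 12.7 CPM in Py2T-LT, or -0.94 ± 0.18. Adora1, the adenosine receptor that damps lipolysis, had 1 count in all over both libraries of the MTΔECad end state against 20.9 and 20.8 CPM in Py2T-LT, a ratio of 0.00161 (exact 95% interval 0.00004076 to 0.00901). The interval, like the floor of 3 counts, covers counting error only. The gene had 0 counts in MTΔECad controls and 4 counts in all in Py2T-LT controls. Pde3b, the phosphodiesterase through which insulin stops lipolysis, had 0 counts in all 4 MTΔECad libraries against 9.31 and 7.91 CPM in treated Py2T-LT libraries, at least 42.7-fold lower, and stood at 7.95 and 9.81 CPM in Py2T-LT controls. Aqp7, the glycerol channel of fat cells, was at 7.8 and 6.67 CPM in MTΔECad and 0.737 and 0.756 CPM in Py2T-LT, against 0 counts in MTΔECad controls and 2 in Py2T-LT controls.

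Fatty acid uptake and carriers were higher or not called. Fabp4, the fatty acid carrier of fat cells (NCBI Gene 11770, chromosome 3, 10204342 to 10208616), reached 1092 and 1039 CPM in MTΔECad and 220.3 and 187 CPM in Py2T-LT, or 2.39 ± 0.13, and the same gap was present in controls (16.4 ± 1.46 and 3.08 ± 1.39 CPM, 2.41 ± 0.22): it rose by 6.02 ± 0.16 with rosiglitazone in MTΔECad and by 6.05 ± 0.19 with BMP2 and the MEK inhibitor in Py2T-LT, and the responses differed by -0.03 ± 0.24 (edgeR adjusted p = 0.98). Cd36, the fatty acid translocase (NCBI Gene 12491, chromosome 5, 17781690 to 17888959), ended at 229 and 230.2 CPM against 105 and 93.7 CPM, a gap of 1.21 ± 0.10 that had not been called in controls (0.508 ± 0.364 and 0.933 ± 0.536 CPM). The control difference of Cd36 was called without replicate 1 of either control (-1.86 in MTΔECad's case and -1.39 in that of Py2T-LT). Lpl, which frees fatty acids from lipoproteins, was high in all groups, at 1914 and 1793 CPM in MTΔECad and 846 and 704 CPM in Py2T-LT, and its rosiglitazone response of 0.18 ± 0.08 was not called (edgeR adjusted p = 0.2). Vldlr, a lipoprotein receptor, differed by 4.98 ± 0.17, as it did in controls (4.66 ± 0.16). Acsl1, which activates fatty acids for storage, stood at 625 and 559 CPM against 193 and 193 CPM and its gap had widened by 1.01 ± 0.11. Of the 9 tested members, 7 were higher and none lower.

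All 9 genes of triglyceride synthesis rose with rosiglitazone, and 5 of them rose with BMP2 and the MEK inhibitor. Pck1, the enzyme of glyceroneogenesis in fat cells (NCBI Gene 18534, chromosome 2, 173153073 to 173159274), gave 6.75 and 6.46 CPM in MTΔECad and 3 counts in all over both libraries in Py2T-LT, a ratio of 70.8 (exact 95% interval 23.9 to 346). Gpd1, which supplies glycerol 3-phosphate, stood at 204 and 188 CPM against 10.8 and 7.33 CPM, or 4.44 ± 0.24, with a like gap in controls (3.80 ± 0.33, and 4.61 without replicate 2 of the Py2T-LT controls). Gpat3 and Agpat2, the acyltransferases of the first steps, ended 1.08 ± 0.10 and 1.11 ± 0.09 higher. Gpat3 had been lower in MTΔECad controls (-0.86 ± 0.12), so its order between the lines turned round. Over the list 7 were higher and none lower, and in 6 the gap had moved toward MTΔECad.

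Fatty acid synthesis separated the lines less. Fasn, fatty acid synthase (NCBI Gene 14104, chromosome 11, 120805958 to 120825166), stood at 686 and 626 CPM in MTΔECad and 596 and 639 CPM in Py2T-LT, with overlapping libraries and a difference of 0.09 ± 0.08 (edgeR adjusted p = 0.35). Scd1, the Δ9 desaturase, reached 3374 and 3518 CPM against 1608 and 1339.7 CPM, or 1.23 ± 0.09, a smaller gap than in controls (2.18 ± 0.09). Elovl6, which elongates palmitate, and Me1, which supplies NADPH, ended lower by -0.94 and -0.73 on the log2 scale, both without a called control difference. Acacb was 3.28 ± 0.30 higher. Of 12 members, 6 were higher and 2 lower, with a median of 0.38.

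The hormones of fat were uneven. Adipoq, the adiponectin gene (NCBI Gene 11450, chromosome 16, 23146536 to 23157968), reached 102 and 90 CPM in MTΔECad and 20.9 and 21.6 CPM in Py2T-LT, or 2.17 ± 0.13 (edgeR adjusted p = 1.4e-11), after 1 count over both MTΔECad controls and 9 counts over both Py2T-LT controls. Cfd, adipsin (NCBI Gene 11537, chromosome 10, 79890853 to 79892655), stood at 45.5 and 41.8 CPM against 1.87 and 0.93 CPM, or 4.98 ± 0.22, after 1 count in each pair of controls. Lep, leptin (NCBI Gene 16846, chromosome 6, 29060221 to 29073876), had 6.3 and 4.81 CPM in MTΔECad and 0 counts in Py2T-LT, at least 29.6-fold higher in MTΔECad, with 6.96 and 6.32 CPM in MTΔECad controls and no called rosiglitazone response (-0.25 ± 0.22, edgeR adjusted p = 0.57). Agt, angiotensinogen, was 3.74 ± 0.19 higher. Nampt and Lcn2 were lower by -1.19 and -1.10, Nampt with no called difference in controls. Retn, resistin, had 2 and 4 counts in the MTΔECad and Py2T-LT end states and did not enter the test.

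Of 14 genes of insulin signalling and glucose uptake, 5 were higher and 3 lower, with a median of 0.25. Slc2a4, the GLUT4 transporter (NCBI Gene 20528, chromosome 11, 69942286 to 69948216), gave 1.11 and 0.481 CPM in MTΔECad and 0.402 and 0.756 CPM in Py2T-LT, with overlapping libraries (0.44 ± 0.52, edgeR adjusted p = 0.48). Among the other members, Trarg1, a protein of GLUT4 vesicles, stood at 144 and 116 CPM against 14.3 and 14.2 CPM, and Sort1, sortilin, was 1.67 ± 0.13 higher after a control difference of -1.06 ± 0.19. Cavin1, which shapes caveolae, went the other way at 1.77 and 1.44 CPM against 225 and 207 CPM, or -7.06 ± 0.16, and was as low in MTΔECad controls (1.6 and 0.689 CPM), while Cav1, the caveolin of the same structures, was 0.61 ± 0.08 higher.

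Other markers of fat cells were higher in 9 of 10 cases, with none lower. Adig, adipogenin, reached 32.5 and 32.1 CPM in MTΔECad and 3.21 and 2.09 CPM in Py2T-LT, and Lgals12, a galectin of droplets, 21.4 and 22.8 CPM against 2.61 and 3.26 CPM. Pcx, pyruvate carboxylase, was 2.38 ± 0.11 higher. Mest, an imprinted gene linked to fat cell size (NCBI Gene 17294, chromosome 6, 30733506 to 30748466), crossed over: 43.4 and 37.8 CPM in MTΔECad against 9.98 and 10.6 CPM in Py2T-LT at the end, and 2 counts in all against 4.99 and 3.87 CPM in controls. Npr3, the clearance receptor of natriuretic peptides, crossed as well, at 117 and 139 CPM against 61.1 and 64.4 CPM after 54.7 and 69.8 CPM against 232 and 253 CPM in controls.

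Fatty acid oxidation genes were higher almost throughout. Of 20 members tested, 18 were higher in MTΔECad, 1 was lower, and 19 rose with rosiglitazone, against 13 that rose with BMP2 and the MEK inhibitor. Of the 18, 15 had already been higher in MTΔECad controls and 3 had no called control difference, and in 9 the gap had widened by test. Acadm, the medium-chain acyl-CoA dehydrogenase (NCBI Gene 11364, chromosome 3, 153922353 to 153944643), stood at 530.2 and 520.2 CPM in MTΔECad and 154 and 144 CPM in Py2T-LT, or 1.82 ± 0.07, where controls differed by 0.19 ± 0.07, a call lost without 1 of 3 of the 4 control libraries (0.15 to 0.22). Ehhadh and Ech1, of peroxisomal and mitochondrial oxidation, were 2.52 ± 0.15 and 1.79 ± 0.09 higher. Pdk4, which spares glucose, was 3.64 ± 0.16 higher, less than in controls (7.35 ± 0.30), with responses of 1.25 ± 0.13 in MTΔECad and 4.97 ± 0.41 in Py2T-LT. Without replicate 1 of the Py2T-LT controls its control difference was 8.26 and the Py2T-LT response 5.88. The lower member was Angptl4, an inhibitor of lipoprotein lipase, at 95.9 and 81.4 CPM against 116 and 141 CPM.

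Brown fat genes gave no single direction. Ucp1, the uncoupling protein, had 0 counts in all 4 end state libraries, which at 3 counts per library allows up to 0.2015 CPM in MTΔECad and 0.1877 CPM in Py2T-LT. Cox8b, a subunit of cytochrome oxidase in brown fat and heart, reached 7.87 and 6.81 CPM in MTΔECad against 7 counts in all in Py2T-LT, a ratio of 33.8 (exact 95% interval 16.1 to 84.9). Slc36a2, an amino acid carrier of brown fat, rose in both lines and ended at 13.1 and 9.9 CPM in MTΔECad and 5.83 and 5.93 CPM in Py2T-LT, after 3 counts or fewer in all in each control. Ppargc1a, the coactivator PGC-1α, stood at 14.1 and 17.8 CPM against 19.5 and 19.8 CPM without a call (-0.30 ± 0.13, edgeR adjusted p = 0.053, and 0.014 at -0.47 without replicate 2 of the rosiglitazone libraries). Dio2, which makes active thyroid hormone, was lower at 1.25 and 1.72 CPM against 9.58 and 8.72 CPM, and the gap was -2.62 against -9.11 in controls (0.766 and 1.38 CPM in MTΔECad and 581 and 625 CPM in Py2T-LT). Of 8 tested members 4 were higher and 3 lower.

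Per exon length, which allows levels of different genes to be set in order within a sample, Scd1 led the adipocyte genes in both end states, at 704 RPKM, the CPM per kilobase of exon, in MTΔECad and 301 RPKM in Py2T-LT, followed by Dbi and Scd2 in both. After these the orders differed in part. In MTΔECad Plin4 and Fabp4 came next at 298 and 237 RPKM, above at least 99.4% of all genes, with Plin2, Agpat2, Cidec and Acadm also among the first 12. In Py2T-LT Nampt, Cav1, Cebpb and Srebf1 came next, and neither Fabp4 nor any perilipin was among the first 12. Cav1, Lpl, Cebpb and Agpat2 were among the first 12 in both end states.

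The scatter of responses sets each line's own change beside the other's. Npr3, Pck1, Gpam and Agt are among the genes that passed the test upwards with rosiglitazone and not with BMP2 and the MEK inhibitor, and whose responses differed by test, and Pparg, Elovl6, Me1 and Lcn2 are among those of the reverse kind. Of the 80 adipocyte genes higher in the MTΔECad end state, 58 had already been higher in its controls, 16 had no called control difference and 6 had been lower. The 16 included 11 in which the change of the gap was called, among them Egr2, Pnpla2, Lipe, Aqp7, Cd36, Slc27a1, Pck1, Akt2, Cpt1a and Acadl. These calls were lost without any 1 of the 4 control libraries for Aqp7 (edgeR adjusted p = 0.056 to 0.087), without any 1 library but replicate 2 of the Py2T-LT controls for Pck1, and without that replicate for Cd36 (1.37). Acadl had a called control difference of -0.29 without replicate 1 of the Py2T-LT controls (edgeR adjusted p = 0.033). The 6 that crossed over were Gpat3, Adipoq, Sort1, Mest, Npr3 and Retsat. Of these, the control call of Adipoq was lost without replicate 2 of either control (-1.89 without that of MTΔECad and -0.77 without that of Py2T-LT), and Retsat lost its end state call under DESeq2 (adjusted p = 0.076) and without any of 3 end state libraries (0.22 to 0.29), and its control call without replicate 1 of either control (-0.27 without that of MTΔECad and -0.29 without that of Py2T-LT). Of the 18 lower genes, 8 had been lower, 8 had no call and 2, Cebpd and Lcn2, had been higher, Cebpd without a call at the end when replicate 2 of either end state was left out (-0.36 and -0.29).

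**Figure D3:**
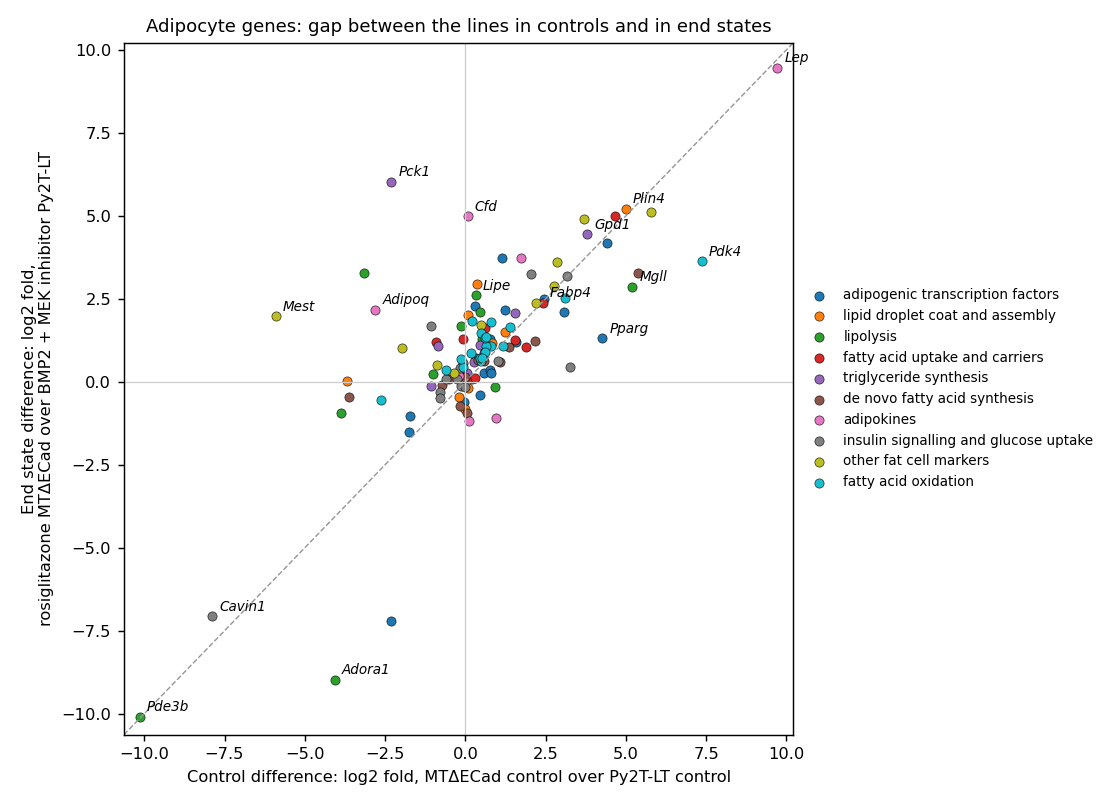
Log2 difference of MTΔECad over Py2T-LT for each tested adipocyte gene in end states (y axis) and in controls (x axis), coloured by list; on the dashed line the gap is unchanged, and fitted values of genes with 0 counts in a group (Lep, Pde3b, Pck1) depend on the prior count. Plin4 lies near the line at 5.22 in end states and 4.99 in controls, Pparg and Mgll lie below it, and Adipoq, Mest and Lipe above it.

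**Figure D4:**
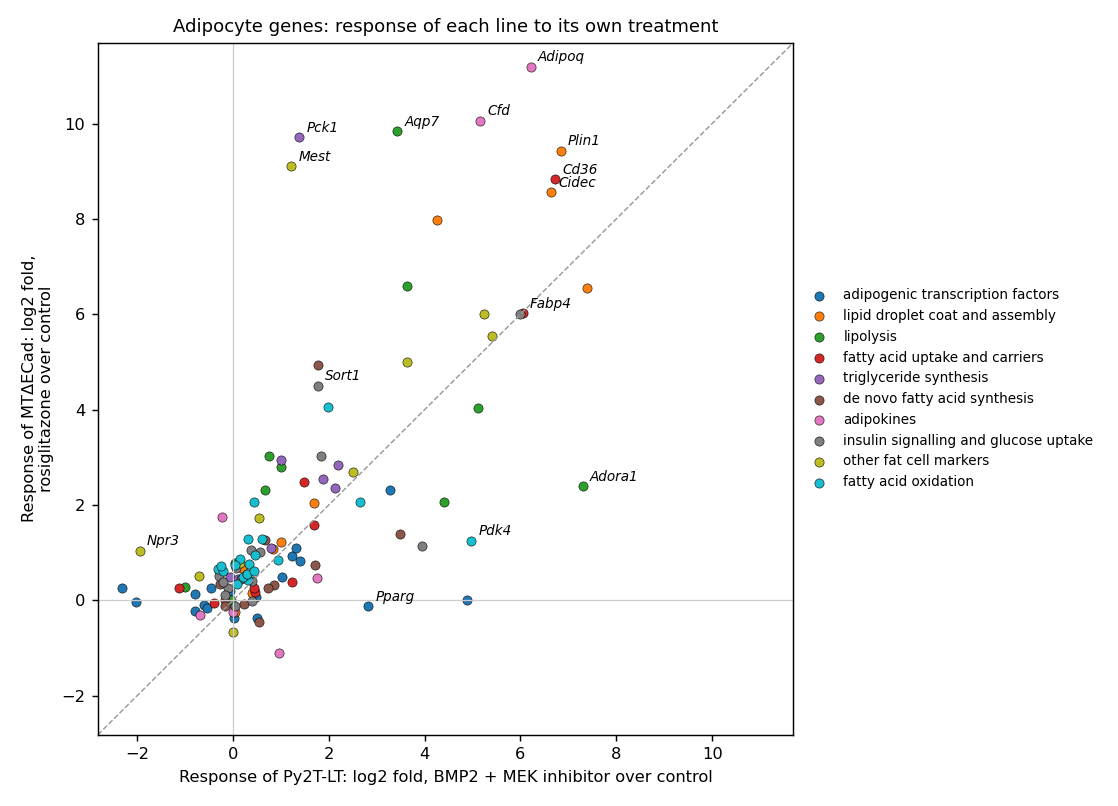
Log2 response of each tested adipocyte gene to rosiglitazone in MTΔECad cells (y axis) and to BMP2 and the MEK inhibitor in Py2T-LT cells (x axis), each against its own control, coloured by list; the dashed line marks equal responses, and genes with 0 counts in a control depend on the prior count. Fabp4 lies near the line at 6.02 for rosiglitazone and 6.05 for BMP2 and the MEK inhibitor, Pparg near 0 for rosiglitazone and at 2.82 for BMP2 and the MEK inhibitor.

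Outside the adipocyte program, the collagen and matrix genes all separated the end states. All 19 collagen and matrix genes were called, 17 higher and 2 lower in MTΔECad, with a median of 2.31. Of the 17, 15 had already been higher in MTΔECad controls, 1 had no called control difference and 1 had been lower. The median control difference of the list was 2.42. Col3a1, fibrillar collagen III (NCBI Gene 12825, chromosome 1, 45311538 to 45349706), stood at 2875 and 2707 CPM in MTΔECad and at 0.737 and 0.233 CPM in Py2T-LT, or 12.52 ± 0.19. It had been 1772 ± 26.7 and 4.07 ± 0.962 CPM in controls, and the gap of 8.77 ± 0.15 widened, with responses of 0.66 ± 0.10 in MTΔECad and -3.10 ± 0.33 in Py2T-LT. The 2 treated Py2T-LT libraries hold few Col3a1 reads: without replicate 1 or 2 of them its end state gap was 13.52 or 11.87 and its Py2T-LT response -4.09 or -2.45. Fbn1, fibrillin, gave 781 and 735 CPM against 0.536 and 0.581 CPM, and Postn, periostin, 1120.1 and 1258 CPM against 21.8 and 17.9 CPM. Col6a1 and Col15a1, collagens of fat and basement membranes, had come closer together: Col6a1 ended at 5378 and 4795 CPM against 1855 and 1805 CPM after a control difference of 4.04 ± 0.11, and Col15a1 at 7.08 and 5.43 CPM against 4.29 and 3.08 CPM after 12.3 ± 2.46 against 0.0929 ± 0.0429 CPM. The end state difference of Col15a1, 0.78 ± 0.24, lost its call without replicate 1 of MTΔECad or 2 of Py2T-LT (0.57 and 0.55). Dcn, decorin, had been lower in MTΔECad controls (-1.84 ± 0.14) and ended 3.55 ± 0.19 higher, with a response of -4.54 ± 0.18 in Py2T-LT. Mesenchymal genes were higher in 10 of 14 and lower in 3, with Vim, vimentin, at 5390.4 and 5000.0 CPM against 3139 and 3045 CPM. Of the 10, 8 had already been higher in MTΔECad controls, 1 had no call and 1 had been lower. Of the 3, 2 had already been lower. Foxc2, a mesenchymal factor, had 0 counts in the MTΔECad end state against 15.2 and 16 CPM, at least 77.5-fold lower.

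Of 13 tested contractile genes, targets of serum response factor (SRF), 7 were higher and 1 lower in MTΔECad, all 7 with a like control difference. Acta2, smooth muscle actin (NCBI Gene 11475, chromosome 19, 34240336 to 34255585), stood at 2270.1 and 1953 CPM in MTΔECad and 1.14 and 2.27 CPM in Py2T-LT, and at 2484 and 2294 and 0.246 and 2 CPM in their controls. Tagln, an actin-binding protein of smooth muscle, gave 104 and 102 CPM against 8 counts in all, a ratio of 414 (exact 95% interval 209.8 to 959.7). Vcl, vinculin, gave 2786 and 2594 CPM against 480.2 and 447 CPM, Myl9, a myosin light chain, 56.9 and 56.5 CPM against 5.76 and 5.17 CPM, and Srf itself 110.1 and 93.9 CPM against 52.2 and 58.5 CPM. SRF binds the CArG box, and 3 of the 12 promoter windows of this list hold one on either strand, against 4 of 32 windows of the adipogenic transcription factors (12.5%) and 1.63% of all 32851 windows in the RefSeq table. Those of this list are Vcl, Myl9 and Srf, shown from RefSeq (GRCm38.p6) as 300 bases from 250 before to 50 after a listed start, 5′ to 3′ on the gene's strand, with the CArG boxes in capitals. The box lies 227 bases before the start in Vcl (chr14:20929148-20929447, plus strand), 161 before it in Myl9 (chr2:156775214-156775513, plus strand), and 82 and 62 before it in Srf (chr17:46556113-46556412, minus strand).
Vcl: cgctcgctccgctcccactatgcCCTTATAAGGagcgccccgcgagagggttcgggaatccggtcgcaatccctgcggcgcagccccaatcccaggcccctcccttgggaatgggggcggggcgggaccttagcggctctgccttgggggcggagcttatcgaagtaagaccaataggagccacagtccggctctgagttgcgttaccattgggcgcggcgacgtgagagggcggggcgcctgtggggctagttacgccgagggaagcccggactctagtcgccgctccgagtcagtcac
Myl9: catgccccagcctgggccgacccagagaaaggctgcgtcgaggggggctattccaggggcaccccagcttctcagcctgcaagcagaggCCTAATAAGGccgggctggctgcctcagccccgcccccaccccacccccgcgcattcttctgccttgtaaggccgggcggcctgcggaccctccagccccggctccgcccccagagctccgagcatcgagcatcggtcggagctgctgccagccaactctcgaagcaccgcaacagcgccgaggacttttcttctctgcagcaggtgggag
Srf: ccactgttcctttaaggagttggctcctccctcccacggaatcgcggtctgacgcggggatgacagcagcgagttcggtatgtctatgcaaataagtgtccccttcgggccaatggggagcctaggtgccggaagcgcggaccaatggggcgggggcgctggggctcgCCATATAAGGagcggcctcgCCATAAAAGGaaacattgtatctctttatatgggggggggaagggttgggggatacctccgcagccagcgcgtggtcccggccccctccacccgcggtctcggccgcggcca
A match of letters is a description of the window and not evidence of binding.

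BMP targets separated the end states in the other direction. All 17 tested were called, 15 lower and 2 higher in MTΔECad, with a median of -2.13; in controls 7 had been lower and 7 higher, and in 11 the gap had moved toward Py2T-LT. Id1, an inhibitor of differentiation and a direct BMP target (NCBI Gene 15901, chromosome 2, 152736251 to 152737410), stood at 39.4 and 42.2 CPM in MTΔECad and 144 and 152 CPM in Py2T-LT, or -1.86 ± 0.12, with 41.8 ± 9.03 CPM in MTΔECad and 40.2 ± 4.86 CPM in Py2T-LT controls (0.06 ± 0.13, edgeR adjusted p = 0.71). Id2 gave 119 and 136 CPM against 558 and 499 CPM and Id4 0.525 and 0.756 CPM against 31.5 and 30.7 CPM. Smad6, an inhibitory SMAD, gave 25.8 and 25 CPM against 122 and 156 CPM, turned round from controls (0.64 ± 0.15). Hey1, a transcriptional repressor, differed by -6.91 ± 0.22. Nog, the BMP antagonist noggin, had 3 counts in all against 26.2 and 36.3 CPM, a ratio of 0.00318 (exact 95% interval 0.000655 to 0.00932). Smad9, a receptor-activated SMAD of the BMP branch, had 1 count against 21 and 20.5 CPM, and was already at 4.74 and 4.87 CPM in Py2T-LT controls. The 2 higher members were Msx1 and Dlx3, homeobox genes, at 5.84 and 3.92 CPM and 6.95 and 4.61 CPM in MTΔECad against 1.07 and 1.86 CPM and 0.268 and 0.407 CPM in Py2T-LT.

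SMAD1 and SMAD5 bind the GC-rich element GGCGCC, which reads the same on both strands. It occurs in 4 of the 10 windows of this list (40.0%) and in 11.9% of all windows. It was as frequent in other lists, with 5 of 12 windows of the ERK targets (41.7%) and 5 of 14 of insulin signalling (35.7%). The windows of Id2 (chr12:25096043-25096342, minus strand), Id4 (chr13:48260866-48261165, plus strand) and Smad9 (chr3:54755332-54755631, plus strand) show where it falls, 231, 148 and 51 bases before the start, in capitals.
Id2: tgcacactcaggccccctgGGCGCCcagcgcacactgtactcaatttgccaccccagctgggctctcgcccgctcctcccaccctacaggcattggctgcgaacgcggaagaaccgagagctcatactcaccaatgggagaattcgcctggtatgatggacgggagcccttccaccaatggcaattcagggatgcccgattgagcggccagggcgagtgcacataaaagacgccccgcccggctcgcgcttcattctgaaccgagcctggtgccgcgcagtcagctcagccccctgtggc
Id4: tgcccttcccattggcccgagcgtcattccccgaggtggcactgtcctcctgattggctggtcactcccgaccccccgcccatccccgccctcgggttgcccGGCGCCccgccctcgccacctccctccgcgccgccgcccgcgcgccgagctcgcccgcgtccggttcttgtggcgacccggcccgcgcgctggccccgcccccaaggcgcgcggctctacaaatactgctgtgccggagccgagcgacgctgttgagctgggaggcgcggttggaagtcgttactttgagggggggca
Smad9: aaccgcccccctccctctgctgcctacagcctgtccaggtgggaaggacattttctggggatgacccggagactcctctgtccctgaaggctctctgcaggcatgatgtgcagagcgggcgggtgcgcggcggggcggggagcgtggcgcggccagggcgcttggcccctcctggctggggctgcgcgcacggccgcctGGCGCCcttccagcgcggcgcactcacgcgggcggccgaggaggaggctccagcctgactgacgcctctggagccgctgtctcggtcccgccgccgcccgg
The DR1 direct repeat bound by PPARγ with RXR, searched on both strands, was in none of the list windows and in 0.381% of all, and the C/EBP palindrome TTGCNNCAA was in 2.08% of all and in 1 window each of the lists of fatty acid synthesis, brown fat, mesenchymal and cell cycle genes. No match says only that these letters are not in the 300 bases.

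Signals next to BMP were mixed. Of 12 TGF-β ligands and targets, 4 were higher and 7 lower: Tgfb2, a ligand, stood at 45.1 and 50.5 CPM in MTΔECad against 11.1 and 11.5 CPM in Py2T-LT, and Ltbp2, which holds latent TGF-β, at 92.3 and 86.6 CPM against 524 and 595 CPM, a difference that arose with treatment (-2.64 ± 0.19; controls -0.34 ± 0.20, edgeR adjusted p = 0.18, and called at -0.63 without replicate 1 of the Py2T-LT controls). Inhba, the activin A subunit, was lower at 4.13 and 3.37 CPM against 52.2 and 50.5 CPM. Of 6 bone and cartilage genes 1 was higher and 3 lower. Alpl, alkaline phosphatase of mineralising bone, was at 11.2 and 11 CPM against 46.5 and 44.8 CPM and had been higher in MTΔECad controls (1.86 ± 0.14), and Col10a1, of hypertrophic cartilage, had 1 count in all against 7.83 and 6.74 CPM. Among 18 ERK targets 6 were higher and 9 lower. Of the 6, 3 had already been higher in MTΔECad controls, 2 had no called control difference and 1 had been lower. Of the 9, 7 had already been lower, 1 had no call and 1 had been higher. With BMP2 and the MEK inhibitor 10 of the 18 fell and 1 rose in Py2T-LT, where 19.4% of all genes fell and 19.1% rose. Dusp6, a phosphatase of ERK, gave 0.17 there without a call (edgeR adjusted p = 0.22). Egr1, an immediate early gene, stood at 29.4 and 41.3 CPM against 2.68 and 3.78 CPM, with a response of -2.92 ± 0.25 in Py2T-LT, and Dusp4, a phosphatase of ERK, at 186 and 178 CPM against 63.9 and 64.7 CPM, whereas Dusp6, another, differed by -0.72 ± 0.11 in the other direction.

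Proliferation genes came closer together. All 21 cell cycle genes had been lower in MTΔECad than in Py2T-LT controls, and 10 fell with rosiglitazone in MTΔECad cells, against all 21 with BMP2 and the MEK inhibitor in Py2T-LT cells. At the end 10 were still lower in MTΔECad, 1 was higher, and in 19 the change of the gap was called. Mki67, a marker of cycling cells, stood at 91.6 and 101 CPM and 89.9 and 85.7 CPM in the MTΔECad and Py2T-LT end states, without a call (0.13 ± 0.08, edgeR adjusted p = 0.16), and at 145 and 149.7 and 237 and 259.8 CPM in their controls. Ccna2, cyclin A2, had 28.7 and 32.3 CPM in MTΔECad and 33.7 and 36.6 CPM in Py2T-LT cells (-0.21 ± 0.09, edgeR adjusted p = 0.06). Its libraries did not overlap, and it was called at -0.29 without replicate 2 of the rosiglitazone libraries (edgeR adjusted p = 0.035). The CDK inhibitor genes Cdkn2a and Cdkn2b were nearly silent in MTΔECad (0.459 and 0.344 CPM, and 2 counts in all) against 59.1 and 59.5 CPM and 247 and 255 CPM in Py2T-LT, and lay far apart in controls too (-7.12 ± 0.20 for Cdkn2a; Cdkn2b at 0 counts in MTΔECad and 104 and 93.5 CPM in Py2T-LT controls). Mdm2, the ligase of p53, stood at 85.3 and 88.6 CPM against 2453 and 2422 CPM, with a control difference of -5.03 ± 0.10.

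Epithelial genes were lower in 7 and higher in 2 of 12. Of the 7, 5 had already been lower in MTΔECad controls, and of the 2, 1 had already been higher. Dsp, desmoplakin, stood at 1.44 and 1.31 CPM in MTΔECad against 24.7 and 23.8 CPM in Py2T-LT, and Cldn4, a claudin, had 0 counts against 5.89 and 9.01 CPM. Krt8, a simple keratin, was the reverse at 285 and 264 CPM against 41.2 and 44.9 CPM, with a response of -2.35 ± 0.09 in Py2T-LT. Krt14, a basal keratin, rose in both lines, by 2.75 ± 0.12 in MTΔECad and 3.26 ± 0.12 in Py2T-LT. Markers of fat cell progenitors were divided, with Pdgfra 1.68 ± 0.08 and Pdgfrb 2.60 ± 0.08 higher and Cd24a lower at 27.7 and 35.6 CPM against 879.8 and 824 CPM. Of 9 interferon response genes 7 were higher and 1 lower, and of 18 cholesterol synthesis genes 6 were higher and 6 lower, with medians of 1.22 and -0.01. In controls 6 of the 7 interferon genes had already been higher in MTΔECad, and the lower 1 already lower. Of the cholesterol genes, 5 of the 6 higher had already been higher in MTΔECad controls. Of the 6 lower, 1 had already been lower, 4 had no call and 1 had been higher.

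Over all genes measured in both end states (mean of at least 10 CPM in the higher and 1 CPM in the lower), the largest gaps toward MTΔECad after Acta2 included Ccl9, a chemokine, at 536 and 609 CPM in MTΔECad against 4.29 and 3.66 CPM in Py2T-LT, and Fstl1 (7.17 ± 0.13), Mustn1 (7.15 ± 0.16, and 7.75 without replicate 1 of treated Py2T-LT), the collagen receptor gene Ddr2 (6.98 ± 0.11) and Sorbs2 (6.95 ± 0.12). The largest toward Py2T-LT were in Gfra1, a receptor of GDNF, at 1.31 and 1.51 CPM in MTΔECad against 375 and 355 CPM in Py2T-LT, Cavin1, the transporter-like gene Mfsd6 at 1.97 and 1.58 CPM against 191 and 186 CPM, and Flrt2, by -6.62 ± 0.14. All of these were called in controls in the same direction.

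Most gaps that arose with treatment went with a called response in Py2T-LT. Of the 833, only the response to rosiglitazone was called in 119, only that to BMP2 and the MEK inhibitor in 583, and both in 87. Over all 13149 genes the rosiglitazone response was called in 1737 and that to BMP2 and the MEK inhibitor in 5064. The 833 were picked by a called difference of the 2 responses, which favours a called response in at least 1 line. The genes named here had a wider gap by test and a control difference of at most 0.5 on the log2 scale, which was still called in Inmt (-0.48), Aqp1 (-0.41), Pid1 (0.31) and Has2 (-0.32). Slc6a2, the noradrenaline transporter (NCBI Gene 20538, chromosome 8, 92960470 to 93001667), stood at 197 and 198 CPM in MTΔECad against 7.5 and 7.21 CPM in Py2T-LT, while controls stood at 193 and 190.2 CPM and 209 and 212 CPM. Rarb, a retinoic acid receptor, had 4.33 and 3.99 CPM against 2 counts in all, a ratio of 66.9 (exact 95% interval 18.1 to 558), both counts in replicate 1, and Inmt, a methyltransferase, 96.3 and 112 CPM against 2.88 and 1.28 CPM, after 324 and 363 CPM and 505 and 453 CPM in MTΔECad and Py2T-LT controls. Aqp1, a water channel, Aspa, which frees acetate from N-acetylaspartate, and Pid1, which lowers insulin signalling, differed in the same direction by 3.30 ± 0.11, 5.68 ± 0.20 and 4.03 ± 0.14. Toward Py2T-LT the largest was Has2, hyaluronan synthase 2 (NCBI Gene 15117, chromosome 15, 56665627 to 56694546), at 6.69 and 7.98 CPM in MTΔECad against 248 and 235 CPM in Py2T-LT, after 11.5 and 12.3 CPM against 16.6 and 13.2 CPM in controls (-0.14 and not called without replicate 1 of the Py2T-LT controls). Ctsd, the lysosomal protease cathepsin D, stood at 1731 and 1655 CPM in MTΔECad against 8029 and 8166 CPM in Py2T-LT, where it had risen by 1.94 ± 0.08. Mal, Serpinf1 and Fgfr2 differed in this direction by -3.47 ± 0.20, -2.68 ± 0.23 and -2.57 ± 0.12. Ugt1a7c and Ugt1a5 also passed this rule, but share exons, and their reads cannot be assigned to one of them.

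**Figure D5:**
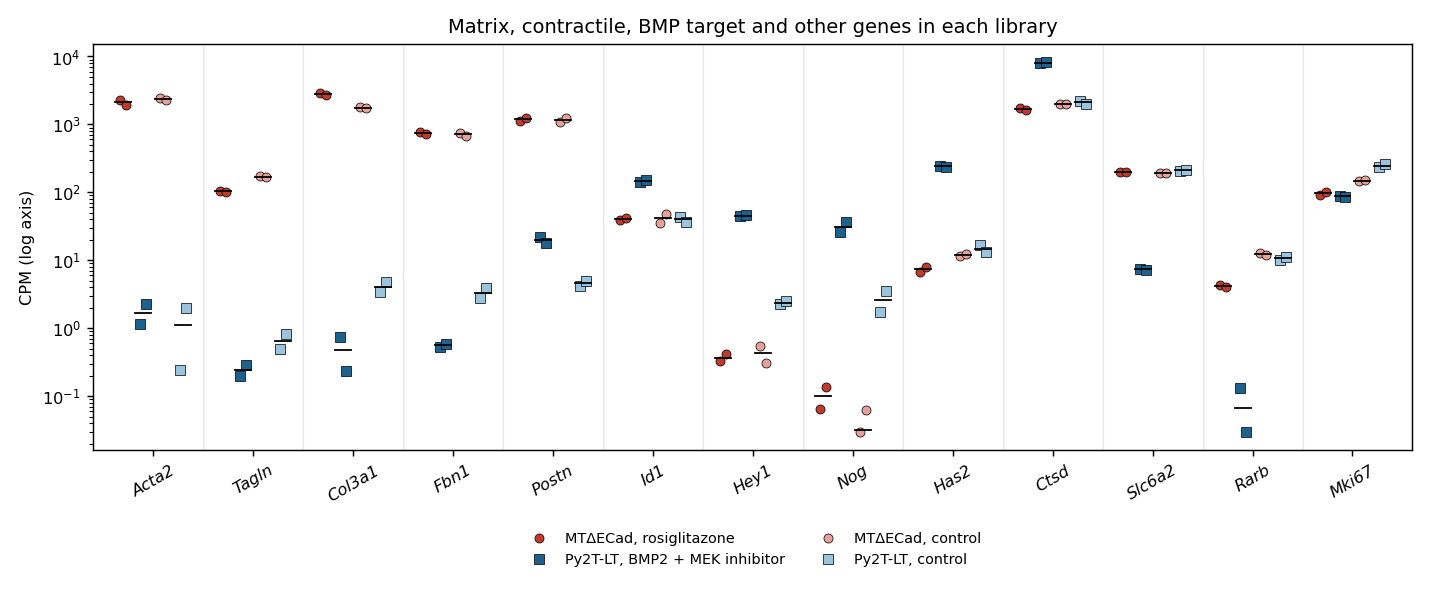
CPM (log axis) of 13 genes outside the adipocyte lists in each library (points) with the mean of the 2 libraries (black line), for the end states (dark) and controls (pale) of MTΔECad (circles) and Py2T-LT (squares); values below 0.03 CPM are drawn at 0.03. Acta2 and Tagln are apart in controls and end states alike, Id1, Has2, Ctsd and Slc6a2 are close in controls and apart in end states, and Mki67 is alike in end states only.

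The reverse also occurred: 1793 of the 8020 control differences (22.4%) were no longer called between end states, and for 643 of them the change of the gap was called. Gprin3 ended at 72.9 and 74.5 CPM in MTΔECad and 80.8 and 77.4 CPM in Py2T-LT after 58.5 and 59.2 and 4.56 and 5.31 CPM in controls, and Sdc3, syndecan 3, at 164 and 140.2 and 174 and 182 CPM after 215 and 172 and 30.2 and 33.3 CPM. The end state difference of Sdc3, -0.22 ± 0.10 (edgeR adjusted p = 0.072), was called without replicate 1 of the rosiglitazone libraries (-0.34), with no count filter, in the compared libraries alone and with the replicate block (edgeR adjusted p = 0.021 to 0.04). Phldb2 (-0.03 ± 0.11 at the end, 2.18 ± 0.12 in controls) and Islr (-0.32 ± 0.22 and 4.48 ± 0.33) were alike in this, Islr with 5.84 and 3.79 in controls without replicate 1 or 2 of the Py2T-LT controls. From the other side Gdpd5 ended at 6.43 and 6.53 CPM in MTΔECad and 7.16 and 7.04 CPM in Py2T-LT after 9.05 and 8.51 and 39.1 and 42.4 CPM, and Rbm47, a splicing regulator of epithelial cells, at 4.07 and 2.96 and 2.48 and 3.43 CPM after 1.67 and 1.63 and 9.3 and 12 CPM. The response to BMP2 and the MEK inhibitor was called in each of the 6 genes.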

How the data were processed

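RNA sequencing was done on 10 libraries of 5 groups, 2 of each. RNA came from 2 independent experiments per the labels' protocols, so p-values measure the spread between experiments and not between cell lines. That spread is estimated within groups and shared over all 5 groups and over genes. The labels' protocols name both a stranded total RNA kit and poly-A RNA, so which RNA was selected is not settled by them. The deposited table holds raw counts per gene for 18103 genes, from reads aligned with STAR to mm10 per the submitters' processing notes. For the STAR version, the counting tool, its annotation and its use of strand the entry is "not given in the sources used here", so reads of overlapping, antisense or near-identical genes may be shared.

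Counts of all 10 libraries were fitted in edgeR 4.0.16 (R 4.3.3) with 1 mean per group, TMM scaling (CPM are counts per effective library size), filterByExpr (13149 genes kept), robust quasi-likelihood tests and 5 residual degrees of freedom; the biological coefficient of variation was 7.07%. Adjusted p-values are Benjamini-Hochberg over all genes tested, with a threshold of 0.05. The script was tested on simulated data. The comparisons were between end states, between controls, the difference of these 2, and each treatment against its own control. Each standard error is the size of the fold change over the square root of F. A gene with 0 counts in a group is given against a floor of 3 counts per library, and one with 1 to 9 counts as a ratio with an exact 95% interval; both cover counting error only.

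The gene IDs of 18057 genes matched RefSeq (GRCm38.p6, the patch release of mm10), 3 more matched GENCODE M21 and 43 matched neither. RefSeq gave a promoter window for 282 of the 395 list genes.

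The genes studied and the lists were chosen with earlier results of these data known. The genes named were 16 standard adipocyte and line markers, up to 4 called members with the largest difference in each direction per list, the 10 largest differences in each direction over all genes and among those with controls within 0.5, and the 5 largest lost control differences in each direction. A further 36 genes were named after their values were seen: Abhd5, Acadl, Akt2, Ccna2, Cebpd, Col15a1, Col6a1, Cpt1a, Dbi, Dcn, Dusp6, Fasn, Fitm2, Gata3, Gpat3, Hey1, Id1, Id2, Id4, Krt14, Mest, Mki67, Npr3, Nr1h3, Pcx, Plin5, Pnpla2, Ppargc1a, Retsat, Smad6, Srebf1, Srf, Stat5a, Vcl, Vim and Wwtr1. The alternatives were RLE size factors, no count filter, DESeq2 1.42.0, fits of the compared libraries alone, a replicate block, leaving out each library, and a minimum change of 1 on the log2 scale. The 2 libraries of Py2T-LT cells with the MEK inhibitor alone entered the fit and are not described. A few genes that this rule takes in are not reported here.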

Additional observations from a re-analysis of the deposited data

How the results depend on the processing

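Counts of calls moved by more than 1.5 times under a pair of alternatives. With only calls over 1 on the log2 scale, 3315 genes separated the end states (1659 higher and 1656 lower), 3219 the controls (1492 and 1727), and 1268 differed in response (699 and 569). The same limit left 409 genes for rosiglitazone (351 and 58) and 1717 for BMP2 and the MEK inhibitor (851 and 866), 8 adipocyte genes lower in MTΔECad, 50 that rose with rosiglitazone and 44 with BMP2 and the MEK inhibitor, 2266 end state calls with a like control difference and 360 with a gap that arose. Without 1 library, the rosiglitazone calls numbered 1112 to 1338 and those that fell 353 to 463, and all other counts of this kind stayed within 1.5 times: 7326 to 7644 end state calls, 79 to 84 adipocyte genes higher and 16 to 17 lower in MTΔECad. DESeq2 gave 7659 end state calls and no count filter 8690, with 80 and 84 adipocyte genes higher. Genes that rose or fell with BMP2 and the MEK inhibitor numbered 2511 and 2553, and 2533 and 2517 with RLE size factors. Replicate numbers were not taken as pairs: deviations of same-numbered libraries correlated at -0.203 between end states, -0.149 between controls, 0.227 within MTΔECad, -0.025 within Py2T-LT, and 0.1 and -0.083 across line and treatment. The replicate block gave 8412 end state calls, and crossed numbers, a pairing chosen after seeing the data, gave 8921 in the 4 libraries alone against 7583 with the numbers as labelled. With 2 libraries per group, a gene at a few counts per library has a fold change known only within its counting interval. Over the genes named and all alternatives but the size limit, 6986 results kept their side of the threshold. A call was lost in 150 and gained in 83. Where the main or the alternative result was called, 0 turned round. A change of direction without any call was not counted. Of the counts per list, 448 stayed within 1.5 times and 20 did not.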
